A study of Canis lupus familiaris with 12 samples.

Results

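cfa-miR-192, cfa-miR-194, cfa-miR-215 and cfa-miR-122 (the prefix stands for the dog and is left out from here on) are small regulatory RNAs best known from gut, liver and kidney, and they were read here in the canine mammary gland tumor line CHMm and in CHMmTAM, the tamoxifen (TAM) resistant line derived from it. The 4 miRNAs were chosen by name out of the 453 mature canine miRNAs in the count table, with earlier results of these data known. Each name occurred once, with no separate entry for the other arm of the precursor. CHMm comes from a metastatic lesion, a pleural effusion. CHMmTAM was selected in rising TAM over 10 months up to 10 μM, kept at 10 μM for 1 month and then grown for 1 week without the drug. Both lines grew in DMEM free of phenol red, with serum stripped of steroids. The paper also lists 4-hydroxytamoxifen among the contents of this medium, without naming the line. Each line is represented by 3 small RNA libraries, and all replicates of the resistant cells come from 1 derived line, so that resistance and other changes during the long culture cannot be told apart. Neither the labels nor the methods say that the replicates were separate cultures. The p-values therefore rest only on the spread between these libraries, which may be technical. For the fold changes, that spread was pooled over all tested miRNAs and is not each miRNA's own.

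A miRNA is cut from a hairpin precursor, loaded into an Argonaute protein and guides it to mRNAs that pair with its seed, the bases near its 5′ end. miR-192 and miR-215 share their seed and differ at few bases, whereas miR-194 and miR-122 each have another seed. In intestine, kidney and liver, miR-192, miR-194 and miR-215 are made from clustered genes driven by hepatocyte nuclear factors, and the tumor suppressor p53 can induce them. miR-122 is the dominant miRNA of hepatocytes, where it acts on cholesterol and lipid metabolism. In the RefSeq genes of the dog assembly UU_Cfam_GSD_1.0, each of the 4 symbols has 1 gene. MIR215 and MIR194 are each other's nearest miRNA genes, and both lie within the span of IARS2, which encodes the mitochondrial isoleucyl-tRNA synthetase. MIR192 lies within the span of the lncRNA LOC102155550, with ATG2A as its nearest protein-coding gene. Its nearest listed miRNA gene is MIR8858, so no MIR194 gene is listed next to it. MIR122 lies within no listed gene, and its nearest protein-coding gene is ALPK2.

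The libraries held between 7512659 and 12482211 counts, so that 3 counts, taken as the smallest detectable amount, correspond to between 0.240 and 0.399 CPM (counts divided by the library's total, times 1000000). This limit and the Wilson intervals of levels cover counting error only. The intervals of fold changes come from the edgeR fit described below, which also includes its estimate of the spread between libraries, pooled over all tested miRNAs. Levels are given as CPM scaled by TMM, which corrects the totals for a few very abundant miRNAs, and are not divided by length, since all entries are mature miRNAs of nearly the same length. Libraries of the same line differed by more than sampling noise, with chi-square values between 26.3 and 85.8 per degree of freedom, and none was treated as deposited repeatedly. All 4 miRNAs were among the 284 with at least 10 counts in total, and none of the 6 libraries lacked any of them.

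3 of the 4 miRNAs, miR-192, miR-194 and miR-215, rose in CHMmTAM, and miR-122 did not pass the test. The rises were small, from 1.21-fold for miR-192 to 1.67-fold for miR-215, and none of the 4 reached the study's fold threshold, a log2 fold change past 1. The lines were tested with edgeR's quasi-likelihood method, and p-values were adjusted by Benjamini-Hochberg over the 284 miRNAs (FDR), and a miRNA passed at an FDR below 0.05. Of all tested miRNAs, 44.0% passed in either direction, 25.4% as higher and 18.7% as lower in CHMmTAM. With the fold threshold as well, 11.3% passed, 5.99% as higher and 5.28% as lower. The median log2 fold change was 0.47 over the 4 miRNAs and 0.06 over all 284. The counts of calls depend on the scaling, with 72 higher and 53 lower under TMM, 64 and 73 under RLE size factors, 62 and 67 under TMM without the 10 most abundant miRNAs, 59 and 66 with DESeq2, and 41 and 100 under upper-quartile normalization. The fit pooled the residual spread over all miRNAs (1136 degrees of freedom), while an exact permutation test of 3 against 3 libraries cannot give a p below 0.1.

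**Figure D1:**
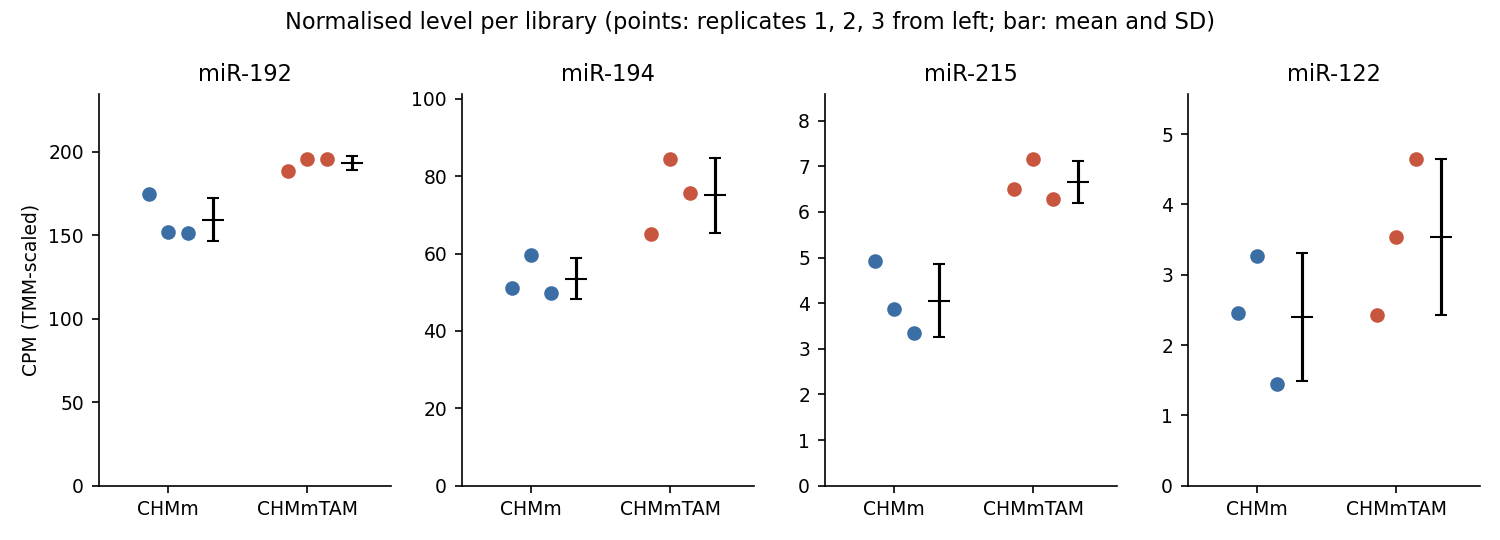
TMM-scaled CPM of miR-192, miR-194, miR-215 and miR-122 in each library, with 3 points per line (replicates 1, 2 and 3 from left) and a bar for the mean with its SD; each panel has its own vertical axis from 0. The CHMmTAM points lie above every CHMm point for miR-192, miR-194 and miR-215, and the lines overlap for miR-122.

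miR-192 was the most abundant of the 4. It had 1276, 1767 and 1357 counts in CHMm replicates 1, 2 and 3, and 2405, 2160 and 1556 counts in the same order in CHMmTAM. Scaled, these are 174, 152 and 152 CPM in CHMm and 188, 196 and 195 CPM in CHMmTAM. The 3 values of CHMmTAM were close together and all above CHMm, although the lowest of them stood only 1.08 times above the highest CHMm library, replicate 1. Across all tested miRNAs, 51.8% had lines that did not overlap, and 28.9% had all of CHMmTAM above all of CHMm. CHMm averaged 159 ± 13.0 CPM and CHMmTAM averaged 193 ± 4.26 CPM (SD, n = 3 each). The log2 fold change was 0.28 (standard error 0.08, 95% interval 0.13 to 0.43), with FDR = 0.00106 from edgeR's quasi-likelihood test. Upper-quartile normalization ended this call, with a log2 fold change of 0.037 (FDR = 0.756 in the same edgeR test) and overlapping lines. Over all 18 alternatives its FDR ranged from 0.000138 to 0.756 in edgeR, DESeq2 and limma.

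miR-194, whose gene in the dog adjoins that of miR-215, had 374, 693 and 446 counts in CHMm and 830, 932 and 602 counts in CHMmTAM. The scaled values were 51.1, 59.7 and 49.9 CPM in CHMm and 65.0, 84.5 and 75.6 CPM in CHMmTAM. Replicate 2 was the highest library of either line, and the lines did not overlap. Means of 53.6 ± 5.33 CPM (SD, n = 3) and 75.0 ± 9.77 CPM (SD, n = 3) gave a 1.39-fold rise, a log2 fold change of 0.48 (standard error 0.09, 95% interval 0.30 to 0.66). In edgeR's quasi-likelihood test its FDR of 8.13e-07 was the lowest of the 4, ranking 64 among the 284. That test uses a spread pooled over all miRNAs. The SD of miR-194 itself was 2.20 times that of counting alone in CHMm and 3.59 times in CHMmTAM, so its FDR and interval may understate its own spread. Under upper-quartile normalization its log2 fold change was 0.23, with FDR = 0.0314 in the edgeR test, and the lines overlapped. That was the highest FDR of its 17 alternatives, and the lowest was 9.95e-10 in edgeR.

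miR-215, the seed relative of miR-192, was counted far less often. CHMm held 36, 45 and 30 counts of it, and CHMmTAM held 83, 79 and 50. In CPM these were 4.92, 3.87 and 3.35 in CHMm and 6.50, 7.16 and 6.28 in CHMmTAM. Every CHMmTAM library was above every CHMm library, with a gap of 1.28 between the nearest pair, the widest gap among the 4 miRNAs. Its means, 4.05 ± 0.799 CPM for CHMm and 6.65 ± 0.459 CPM for CHMmTAM (SD, n = 3 each), correspond to a log2 fold change of 0.74 (standard error 0.21, 95% interval 0.33 to 1.15, FDR = 0.00131 from edgeR's quasi-likelihood test). The interval reaches past a log2 fold change of 1, so at this depth a doubling was not distinguishable from the smaller rise. miR-215 had the largest fold change of the 4, ranking 41 from the highest among the 284, ahead of miR-194 at 71, miR-122 at 74 and miR-192 at 102. The 95% intervals of all 4 overlap, which by itself does not test this order. In the exact permutation tests of ratios within a library, given below, no adjusted p-value was below 0.6. With 3 against 3 libraries these tests cannot give a p below 0.1 before adjustment, so they cannot resolve the order.

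miR-122, the hepatocyte miRNA, had 18, 38 and 13 counts in CHMm and 31, 39 and 37 counts in CHMmTAM. That is 2.46, 3.27 and 1.45 CPM in CHMm and 2.43, 3.54 and 4.65 CPM in CHMmTAM. Under TMM, CHMmTAM replicate 1 lay below CHMm replicates 1 and 2, and of the 9 pairs of libraries 7 were higher in CHMmTAM. Its order against CHMm replicate 1 depends on the scaling, since by library totals alone CHMmTAM replicate 1 was higher, at 2.48 against 2.40 CPM. The means were 2.40 ± 0.911 CPM (SD, n = 3) and 3.54 ± 1.11 CPM (SD, n = 3). With a log2 fold change of 0.47 (standard error 0.28, 95% interval -0.08 to 1.01, FDR = 0.168 from edgeR's quasi-likelihood test), neither no difference nor a doubling lies outside the interval. Single libraries decide its value, which was 0.73 without CHMmTAM replicate 1, where it passed (FDR = 0.0436, edgeR), 0.84 without CHMm replicate 2 (FDR = 0.0736, edgeR), 0.21 without CHMm replicate 3 (FDR = 0.635, edgeR) and 0.28 without CHMmTAM replicate 3 (FDR = 0.513, edgeR). Those FDR values of 0.0436 and 0.635 are also the extremes over all its alternatives in edgeR, DESeq2 and limma. Upper-quartile normalization gave a log2 fold change of 0.23.

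**Figure D2:**
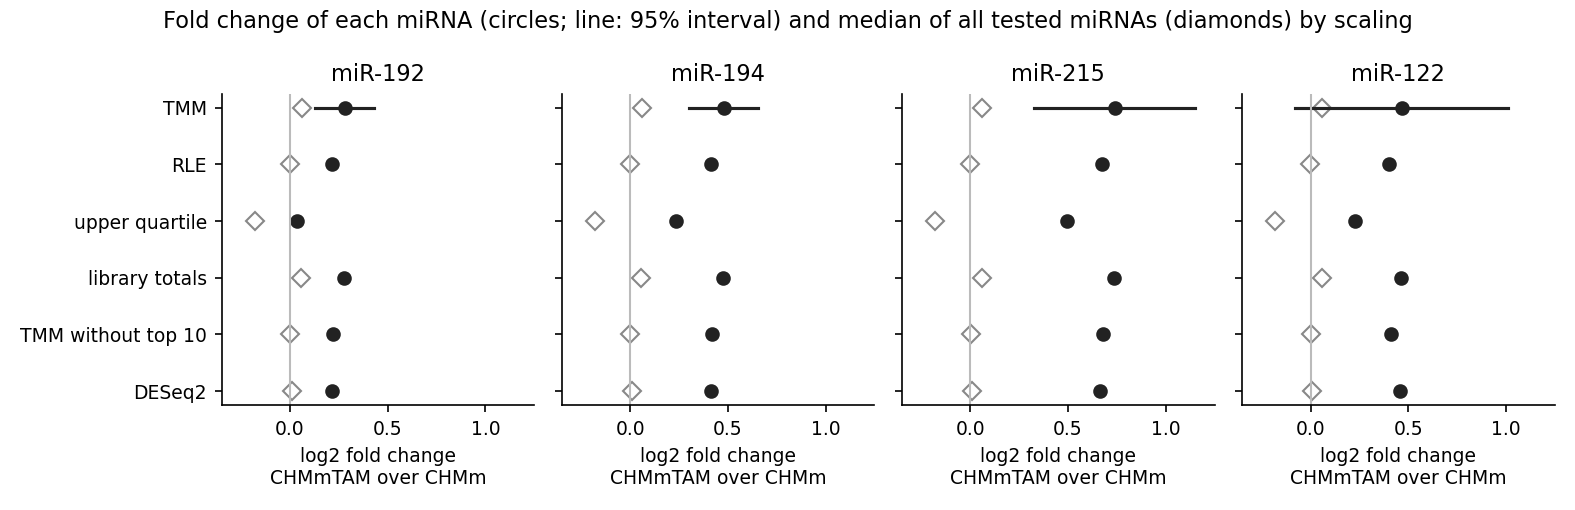
Log2 fold change of CHMmTAM over CHMm for each of the 4 miRNAs (filled circles, with the 95% interval for TMM) under 6 scalings, beside the median over all tested miRNAs under the same scaling (open diamonds). The circles and diamonds shift together, and under upper-quartile normalization the median lies at -0.18 and miR-192 at 0.037.

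Another library scaling moves all miRNAs nearly alike, so the distance of each from the median of all is fixed by construction and is given only as the change relative to that median. Over all tested miRNAs, the median log2 fold change went from 0.06 under TMM to -0.18 under the upper quartile. Relative to that median, miR-192 stood 0.22 higher under TMM and 0.22 higher under the upper quartile. The same differences were 0.42 and 0.41 for miR-194, 0.68 and 0.67 for miR-215, and 0.41 and 0.41 for miR-122. With DESeq2, which also fits another model, they were 0.21, 0.41, 0.65 and 0.45 in the order miR-192, miR-194, miR-215 and miR-122. The sign of all 4 fold changes was positive under every one of the 6 scalings.

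The replicate spread differed among the members. For miR-192 in CHMmTAM the SD was 0.978 times that expected from counting alone, and for miR-215 the SD was 1.18 times that in CHMm and 0.569 times in CHMmTAM. For these the spread was near or below that of counting. The SD exceeded counting error for miR-194, at 2.20 times in CHMm and 3.59 times in CHMmTAM, and for miR-192 in CHMm, at 3.07 times. miR-122 varied most in relative terms, with a coefficient of variation of 38.0% in CHMm and 31.4% in CHMmTAM, which is 1.79 and 1.84 times the counting error.

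Levels fell in the order miR-192, miR-194, miR-215 and miR-122 in all 6 libraries. miR-192 ranked between 89 and 95 of the 453 entries within a library and miR-194 between 106 and 119, so both belong to the upper part of the table. miR-215 ranked between 171 and 185, and miR-122 between 180 and 203. miR-215 and miR-122 were closest to each other in CHMm replicate 2, at 3.93 and 3.32 CPM of all counts, where their 95% Wilson intervals of 2.94 to 5.26 and 2.42 to 4.55 CPM overlap. Among all tested miRNAs, the nearest levels to miR-192 were those of miR-30e and miR-23b. miR-30e lay above it in CHMm, at 179 to 202 CPM, and below it in CHMmTAM, at 169 to 175 CPM, so the order of these neighbours was opposite in the lines. The range of miR-23b, 151 to 188 CPM in CHMm, held all 3 CHMm values of miR-192, and its CHMmTAM range of 165 to 177 CPM lay below miR-192. Next to miR-194 stood miR-130a and miR-503, which did not pass the test, with FDR = 0.889 and FDR = 0.976 from edgeR. miR-8865 and miR-190a, with means of 5.37 and 5.34 CPM, could not be ordered against miR-215 at 5.35 CPM. miR-122 lay between miR-486-3p and miR-8802, at 3.27 and 2.69 CPM.

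**Figure D3:**
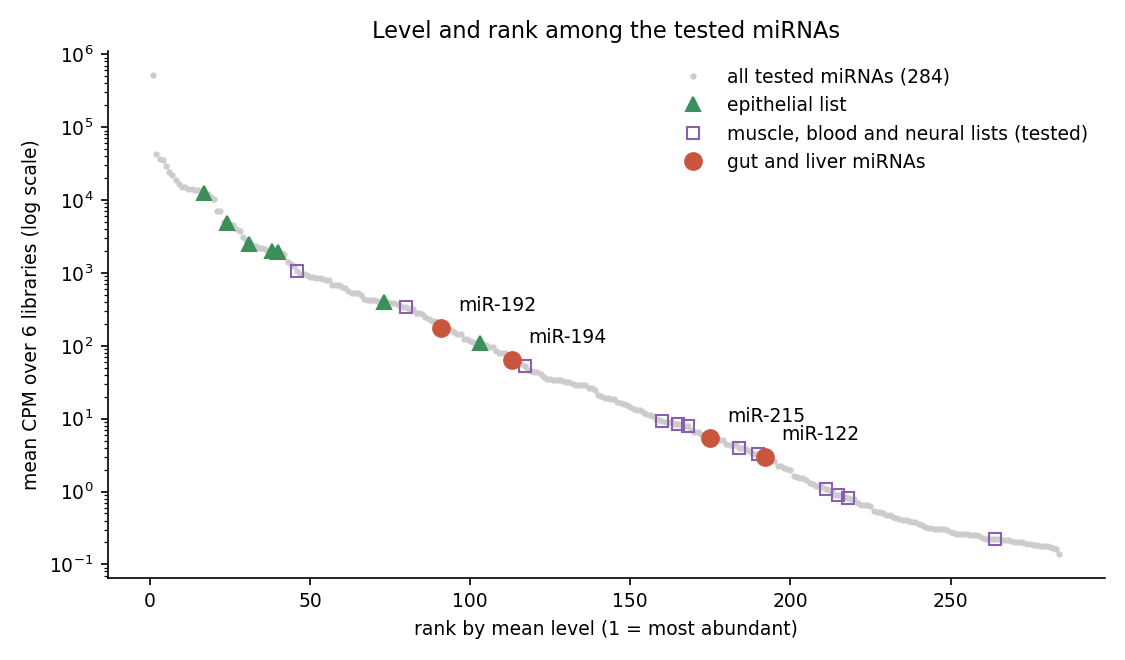
Mean CPM over the 6 libraries (log axis) against rank for the 284 tested miRNAs (grey), with miR-192, miR-194, miR-215 and miR-122 in red, an epithelial list as triangles and the tested members of muscle, blood and neural lists as open squares. miR-192 stands at rank 91, between the epithelial miR-200a and miR-200b at 73 and 103, miR-194 at 113, and miR-215 and miR-122 at 175 and 192.

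The label of the 4 as miRNAs foreign to mammary epithelium was set against miRNAs that mark epithelium. Together the 4 took between 0.0209% and 0.0227% of all counts in CHMm and between 0.0268% and 0.0290% in CHMmTAM. The 7 epithelial miRNAs miR-200a, miR-200b, miR-200c, miR-141, miR-429, miR-205 and miR-203 took between 2.45% and 2.69% in CHMm and between 2.20% and 2.37% in CHMmTAM, so that their share was lower there while that of the 4 was higher. The 7 did not move together. On average miR-205 fell from 5998 to 3802 CPM and miR-203 from 2174 to 1835 CPM. miR-200a, miR-200b and miR-429 rose, at log2 fold changes of 0.27, 0.21 and 0.36, and miR-200c and miR-141 did not pass. Per 1000 counts of that list, the 4 had 8.58 ± 0.606 (SD, n = 3) in CHMm and 12.0 ± 0.658 (SD, n = 3) in CHMmTAM, a difference to which both shares contribute. Most of the 4 miRNAs' counts were miR-192, with 72.6% ± 2.81 (SD, n = 3) in CHMm and 69.5% ± 2.27 (SD, n = 3) in CHMmTAM, while miR-122 made up 1.08% ± 0.396 and 1.26% ± 0.364. Of the 7 epithelial miRNAs, miR-192 lay above only the least abundant, miR-200b, which averaged 101 ± 8.65 CPM in CHMm and 118 ± 9.38 CPM in CHMmTAM, and below the other 6, from miR-200a at 359 ± 29.5 and 435 ± 43.3 CPM upwards. miR-194, miR-215 and miR-122 lay below all 7. The 4 were thus detected but scarce beside the epithelial list, and whether their reads come from these cells or from other RNA was not tested.

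Ratios within a library do not depend on the scaling. Of miR-215, there were 2.82, 2.55 and 2.21 counts per 100 counts of miR-192 in CHMm, and 3.45, 3.66 and 3.21 in CHMmTAM. The lines did not overlap, and the log2 ratio of miR-192 to miR-215 was lower in CHMmTAM by -0.44 (standard error 0.11). This had p = 0.1 in an exact two-sided permutation test, the smallest that 3 against 3 allows, and 0.6 after adjustment over the 6 pairs of the 4 miRNAs. Because miR-192 and miR-215 are so alike, and the treatment of reads that match several miRNAs is not given in the sources used here, a few reads of one may have been counted as the other. Whether they were was not tested. When miR-192 and miR-215 were summed, their log2 fold change was 0.29 (FDR = 0.000557 from edgeR's quasi-likelihood test), since miR-192 supplies nearly all of the sum.

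**Figure D4:**
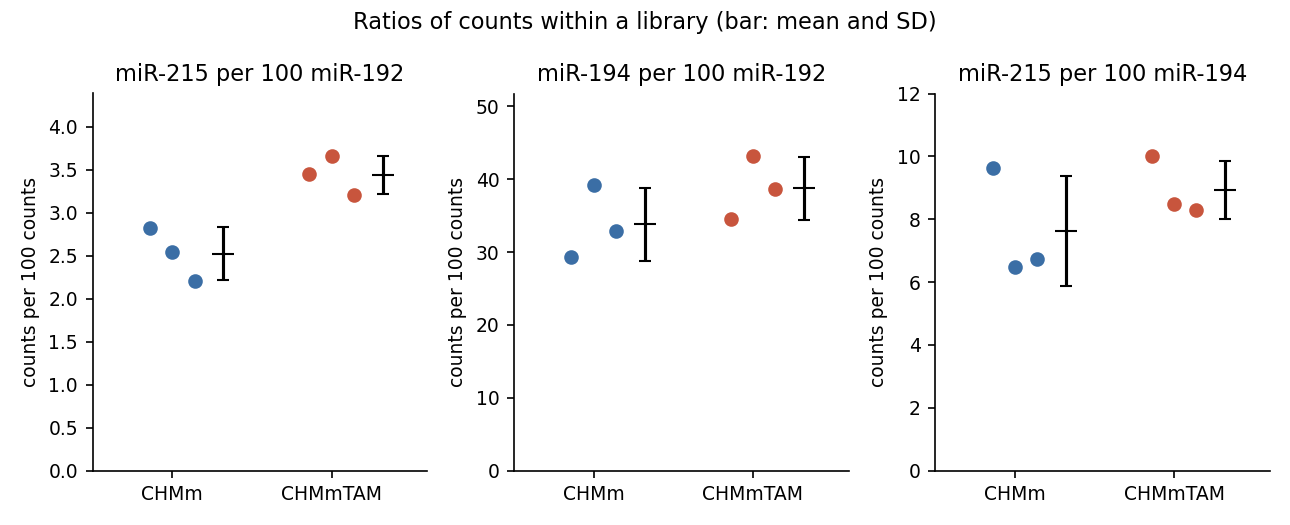
Counts of one miRNA per 100 counts of another in the same library, for miR-215 against miR-192, miR-194 against miR-192 and miR-215 against miR-194, with 3 points per line and a bar for the mean with its SD. Only in the first panel do the lines not overlap, with CHMm from 2.21 to 2.82 and CHMmTAM from 3.21 to 3.66.

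miR-194 had 29.3, 39.2 and 32.9 counts per 100 counts of miR-192 in CHMm and 34.5, 43.1 and 38.7 in CHMmTAM. Its ratio to miR-192 thus overlapped between the lines, and replicate 2 held the highest value in each. The log2 ratio of miR-192 to miR-194 differed by -0.20 (standard error 0.15), with an exact permutation p = 0.3. For the neighbouring genes miR-194 and miR-215, the counts of miR-215 per 100 of miR-194 were 9.63, 6.49 and 6.73 in CHMm and 10.0, 8.48 and 8.31 in CHMmTAM, which overlap, with an exact permutation p = 0.3. The 3 ratios to miR-122 had exact permutation p-values of 0.6, 0.9 and 0.6 for miR-192, miR-194 and miR-215. After adjustment over the 6 pairs none was below 0.6.

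The pattern over the 6 libraries was compared with that of 155 other miRNAs of at least 10 CPM, by the Euclidean distance between log2 CPM profiles centred on their means. The miRNAs nearest to miR-192 were miR-7180, let-7g and miR-429, at distances of 0.102, 0.133 and 0.152, against a median of 0.515 over the 155. Nearest to miR-194 were miR-20a, miR-324 and miR-93, at 0.205, 0.222 and 0.231 with a median of 0.729. For miR-215, miR-8859b, miR-1839 and miR-499 came first, at 0.282, 0.286 and 0.329 with a median of 0.944. The nearest of the 155 to miR-122, miR-34a, was at 0.706 with a median of 1.13, and miR-194 was at 0.693 from it. Among the 4, the nearest pair was miR-192 and miR-194 at 0.447. These distances are a description, and with 6 libraries they follow mostly the difference between the lines and the counting noise.

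Other lists of tissue miRNAs, chosen like the 4 with earlier results of these data known, give the setting. Beside their counts stand the shares over all tested miRNAs, 25.4% higher and 18.7% lower in CHMmTAM. No list was tested against these shares. Of 9 further miRNAs linked to liver and gut, 8 were in the table and 6 were tested, of which 2 were higher, 2 lower and 2 did not pass, with a median log2 fold change of -0.03. Those that fell were miR-148a, abundant in liver and elsewhere, at a log2 fold change of -0.47 (FDR = 1.85e-12, edgeR), and miR-375, a miRNA of endocrine cells, at -1.79 (FDR = 3.08e-78, edgeR). The higher ones were miR-103 at 0.60 and miR-107 at 0.47, while miR-378 was at -0.00079 and miR-483 at -0.06. Of miR-885, known from liver, and of miR-802, no library held more than 4 and 2 counts. The 3 pancreas miRNAs miR-216a, miR-216b and miR-217 held at most 1 count in any library.

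Among miRNAs that p53 can raise or help to process, 7 were tested, 3 were higher and 4 did not pass, with a median log2 fold change of 0.46. Of all tested miRNAs, 25.4% were higher. The higher ones of this list were miR-34a, from 290 ± 15.0 CPM to 400 ± 44.8 CPM (SD, n = 3 in each line), at a log2 fold change of 0.46, and miR-34b and miR-34c, at 2.19 and 2.26. Those that did not pass were miR-143 at 0.54, miR-15a at 0.05, miR-16 at -0.08 and miR-145 at -0.17. Of these, miR-145 had at most 5 counts in any library. The log2 fold changes of miR-192, miR-194 and miR-215, at 0.28, 0.48 and 0.74, lie around that of miR-34a and below those of miR-34b and miR-34c, and these differences were not tested. p53 itself was not measured here.

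The muscle and blood lists also had higher summed levels in CHMmTAM. Among all tested miRNAs, 25.4% were higher and 18.7% lower. The summed level of the 8 muscle miRNAs was 284 to 309 CPM in CHMm and 430 to 442 CPM in CHMmTAM, and 5 of the 5 tested were higher. Most of that sum was miR-499, at 283 ± 20.6 CPM and 395 ± 6.16 CPM (SD, n = 3 each) and a log2 fold change of 0.48, while miR-1, miR-133a, miR-133b and miR-133c had log2 fold changes from 1.79 to 2.26. The 6 blood miRNAs summed to 4.99 to 6.12 CPM and 12.2 to 15.0 CPM, and 2 of the 4 tested were higher. In these lists miR-208a was at 0 in all libraries, and miR-206, miR-208b, miR-144 and miR-150 had at most 3 counts in any. Of the 5 neural miRNAs 3 were tested, 1 higher and 1 lower. The higher one was miR-129, which had at most 6 counts in any library. The lower one was miR-218, with up to 1005 counts and a log2 fold change of -1.92. Of the 7 epithelial miRNAs 3 were higher and 2 lower, with a median of -0.06. What part other cells or their RNA have in the rise of the 4 miRNAs was not tested.

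**Figure D5:**
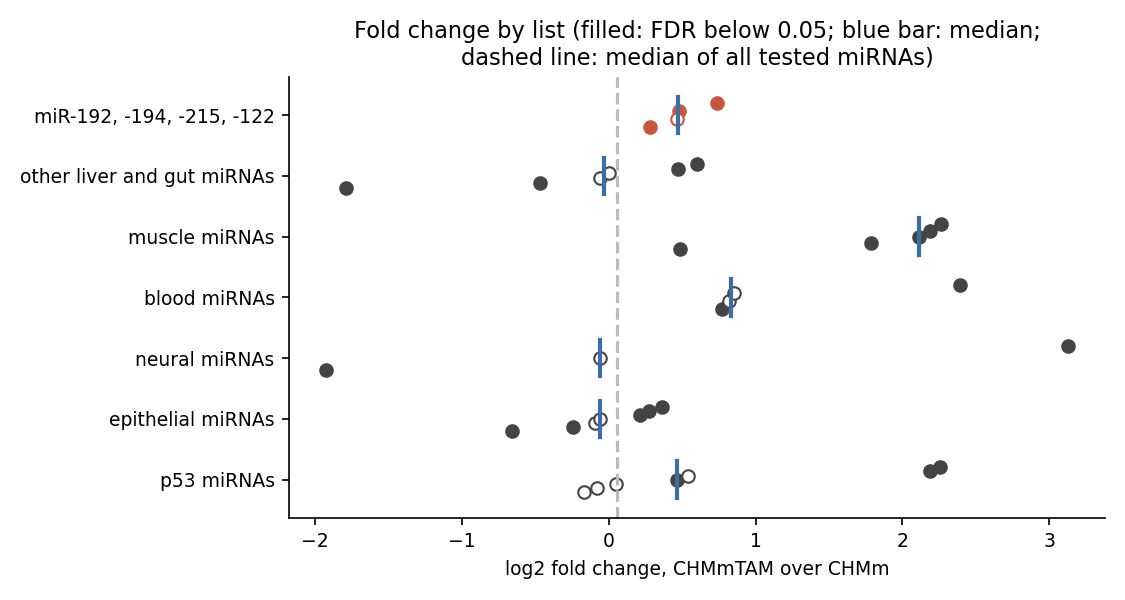
Log2 fold change of CHMmTAM over CHMm for the tested members of each list, filled where the FDR was below 0.05, with a blue bar for the list's median and a dashed line at the median of all tested miRNAs, 0.06. miR-192, miR-194, miR-215 and miR-122 lie between 0.28 and 0.74, below most muscle miRNAs, whose median is 2.11.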

How the data were processed

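The deposited table holds read counts for mature canine miRNAs, not normalized, with 1 column for each small RNA library. Total RNA was extracted with Trizol and miRNA was purified before HiSeq sequencing. The submitters' processing notes name CanFam3.1, HISAT2 2.0.4 and BWA without their role. The miRNA database, trimming, counting tool and treatment of reads matching several miRNAs are not given in the sources used here. The RNA-seq libraries were not analysed here.

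Libraries were assigned to their line by the sample labels. edgeR 4.0.16 in R 4.3.3 was used with TMM, a minimum of 10 counts over the 6 libraries and the quasi-likelihood test without a block, since the study names no test for the sequencing. The script was tested on simulated data. Standard errors come from the coefficient and its F statistic. Alternatives used DESeq2 1.42.0, limma 3.58.1 and other scalings and filters. Ratios and profiles used SciPy 1.17.1 in Python 3.11.15 with a pseudocount of 0.5. Named were the 4 miRNAs, the 3 nearest profiles, the neighbours in level, and list members. The rule allowed at most 3 named per list, by level. Others were named after their values were seen, to account for the list. The members and lists were chosen with earlier results of these data known. Total counts per library, from 7512659 to 12482211, set the precision.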

Additional observations from a re-analysis of the deposited data

How the results depend on the processing

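miR-194 and miR-215 kept their direction and their call in all 17 alternatives, with log2 fold changes from 0.23 to 0.60 and from 0.49 to 0.87. miR-192 kept its direction in all 18 and lost its call in 1, at 0.037 under upper-quartile normalization, which shifts all miRNAs alike. miR-122 stayed without a call except without CHMmTAM replicate 1, and its value without single libraries ranged from 0.21 to 0.84. The number of miRNAs called was 125, and 114 to 126 without single libraries. It fell to 32, 17 higher and 15 lower, with the fold threshold added. Upper-quartile normalization gave 41 higher and 100 lower. With the replicate number as a block 126 were called, and no call of the 4 miRNAs changed. Deviations of same-numbered libraries from their line's mean had correlations of 0.0612, 0.460 and -0.311. So few values cannot decide whether the numbers pair the libraries. In each line 1 of the 3 libraries correlated best with its own number in the other. The ratio of miR-194 to miR-122 ranged from -0.26 to 0.17 and that of miR-215 to miR-122 from -0.13 to 0.41 (log2, CHMmTAM minus CHMm) without single libraries, each changing sign in 2 of these. The cause was not tested. Depth limits miR-122 and miR-215, with 13 to 39 and 30 to 83 counts per library.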
